A study of Lathyrus oleraceus with 4 samples.

Results

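Seeds of the grain pea cultivar Zhongwan 6 at 25 days after pollination (DAP) were compared with seeds of the same cultivar at 10 DAP by RNA-Seq, over the unigenes, the assembled sequences that stand for transcripts, that had at least 50 reads in 1 of these libraries. There were 33799 such unigenes of the 77269 in the deposited table. Each stage had 1 library, made from mRNA of field-grown seeds pooled from many plants. The methods mention biological replicates, but the table holds 1 column per cultivar and stage, so none of the ratios below has a replicate check and no test between stages was made. The vegetable pea Zhewan 1, with 1 library at each of the same stages, is used to show where the ratios of Zhongwan 6 differ. Its libraries also enter the TMM and DESeq2 factors named below. The reads counted on unigenes numbered 70912839 at 25 DAP, against 60861344 at 10 DAP. Both numbers exceed the clean reads that the study gives for these libraries, so reads were counted more than once. Numbers and shares of reads below are those of the counts. RPKM, the unit of level, is the read count scaled by unigene length and by the counted reads of the library. A unigene was called higher or lower at 25 DAP when its RPKM ratio reached 2-fold, with fewer than 3 reads set to 3, and "rose" and "fell" below mean this call. Log2 ratios use the same floor, whereas a fold with an interval is the ratio of the reads as counted, also where a library had 1 or 2 reads. Intervals on ratios are exact Clopper-Pearson intervals at 95%, which cover counting error only, not variation between plants or libraries. They treat the counts as separate reads, so they are too narrow where a read was counted more than once. As the RNA came from whole seeds, fewer cells of a type and less RNA per cell cannot be told apart.

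A pea seed first grows by cell division and fills with liquid endosperm, and then its cotyledons expand and store starch and protein while they are still green. Sucrose from the mother plant is split and converted to ADP-glucose, from which starch synthases and branching enzymes build the granule. The storage phase of legume seeds is governed by transcription factors of the FUS3 and LEC type, described in Arabidopsis thaliana and legumes, and ends in desiccation, for which oil body proteins, late embryogenesis proteins and small heat shock proteins are made. The label "seed" was checked against genes of this kind. FUS3 (comp26137_c0_seq1) had 42.6 RPKM at 25 DAP and 19.8 RPKM at 10 DAP. The oleosin (comp11102_c0_seq1), a coat protein of oil bodies, had 21.9 RPKM at 25 DAP and 22.7 RPKM at 10 DAP, and the caleosin (comp13486_c0_seq1), a second kind of oil body protein, had 16.2 RPKM at 25 DAP and 9.24 RPKM at 10 DAP. FUS3, the oleosin and the caleosin were therefore present at both stages. Other kinds of seed marker that were planned, 2S albumins, cupins and late embryogenesis proteins, are not given here. The oleosin and the caleosin belong to a list of 11 unigenes of seed reserves and protection, given below, of which 2 rose and 3 fell.

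More unigenes fell than rose with the RPKM as deposited. At 25 DAP 5480 unigenes (16.2%) were at least 2-fold higher and 8828 (26.1%) were at least 2-fold lower than at 10 DAP, while 19491 (57.7%) stayed within 2-fold. At 4-fold the numbers were 2613 higher and 4576 lower, at 16-fold 1028 and 1977, and at 64-fold 300 and 661. The median log2 ratio was -0.22, and the quartiles lay at -1.06 and 0.55. The tails are set in part by the entry rule. Of the 26892 unigenes with 50 reads in both libraries, 3154 (11.7%) rose and 5210 (19.4%) fell. Of the 2980 that entered through 25 DAP alone 2326 rose, and of the 3927 that entered through 10 DAP alone 3618 fell, which the rule makes likely by itself. No read was counted for 562 of the members at 10 DAP and for 793 at 25 DAP. Just inside the limit, 131 unigenes had 50 reads in the higher library, of which 24 rose and 45 fell. Just outside it, 139 had 49 reads, of which 28 would have been called higher and 55 lower.

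**Figure D1:**
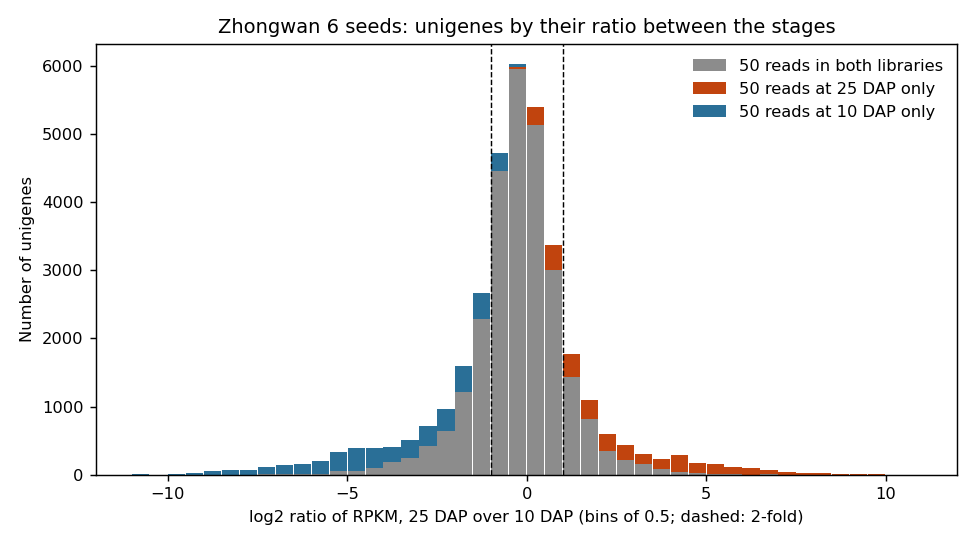
Number of Zhongwan 6 unigenes (vertical axis) in bins of the log2 RPKM ratio of 25 DAP over 10 DAP (horizontal axis), stacked by whether 50 reads were reached in both libraries, at 25 DAP only or at 10 DAP only; dashed lines mark 2-fold. The bulk lies inside the lines (19491 of 33799), the left tail holds 8828 unigenes and the right tail 5480, and the outer parts of both tails consist mostly of unigenes that reached 50 reads in 1 library.

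How the 2 libraries are put on 1 scale decides how uneven the split is. Scaling by the median ratio of the unigenes with 50 reads in both libraries added 0.18 to every log2 ratio and gave 6420 higher (19.0%) and 7703 lower (22.8%). TMM factors, which trim the extreme and the most abundant unigenes, added 0.26 and gave 6931 higher (20.5%) and 7304 lower (21.6%). With DESeq2 size factors the addition was 0.23 and the counts were 6771 higher (20.0%) and 7400 lower (21.9%). TMM and DESeq2 factors were both computed over all 4 libraries, those of Zhewan 1 included. Leaving the 100 most abundant unigenes of either library out of the totals added 0.07 and gave 5846 higher (17.3%) and 8372 lower (24.8%). The share of higher ones among the called unigenes was thus 38.3% as deposited and 48.7% with TMM. Over all unigenes considered, lower ones outnumbered higher ones under all 5 scalings, and the median log2 ratio ran between -0.22 and 0.03. The order depended on the set of unigenes, as it turned over the 31119 that also had 50 reads in a Zhewan 1 library. There 6205 were higher and 5937 lower with TMM factors, and 6051 higher and 6025 lower with DESeq2 size factors. Ratios and counts below are those of the deposited RPKM, and another scaling is named only for some of the calls that it changes. The other scalings add to every log2 ratio, so the counts of a list can lose lower members and gain higher ones. With TMM factors, for example, the ubiquitin list below goes from 3 to 5 higher members.

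**Figure D2:**
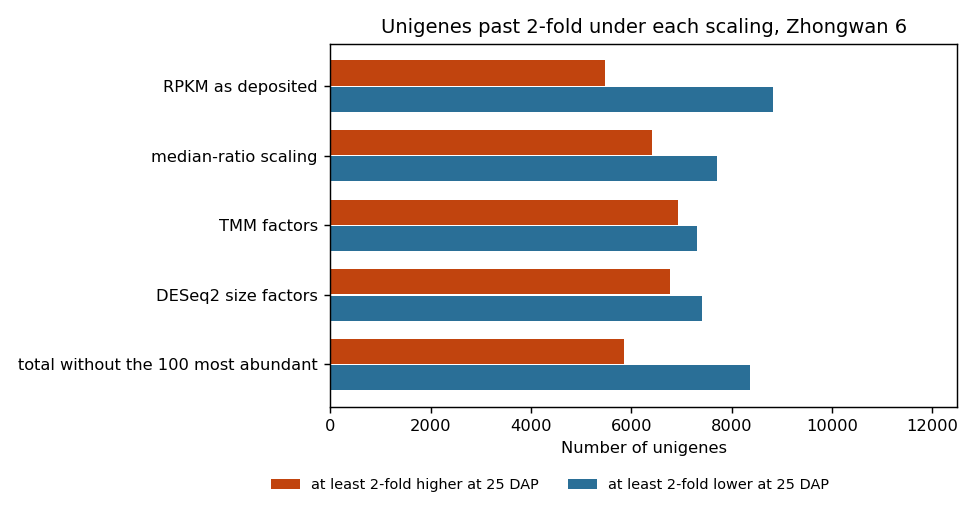
Numbers of Zhongwan 6 unigenes at least 2-fold higher (upper bar of each pair) and at least 2-fold lower (lower bar) at 25 DAP than at 10 DAP, under each of 5 scalings of the 2 libraries. The pair is 5480 and 8828 with the RPKM as deposited and 6931 and 7304 with TMM factors.

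The direction also depended on abundance. Among the 553 unigenes with a mean RPKM of at least 100, 35.4% rose and 17.5% fell. In the 23595 with a mean of 1 to 10 RPKM, 13.5% rose and 25.6% fell, and in the 3708 with a mean under 1 RPKM 26.3% rose and 37.3% fell. Unigenes of at least 1500 bp were called less often (11.9% higher and 24.0% lower) than those under 500 bp (26.1% higher and 31.6% lower). No test was made of these shares, and depth, which sets the counting error of short and rare unigenes, differs with them. In reads, the unigenes that rose took 42.2% of the counted reads at 25 DAP and 12% at 10 DAP. Those that fell took 8.30% at 25 DAP and 39.3% at 10 DAP. The 10 most abundant unigenes held 27.1% of the reads at 25 DAP and 26.4% at 10 DAP, and 4 of them were the same. Of the 100 most abundant, 66 were shared, and of the 134 unigenes in either list 52 rose and 35 fell. The most abundant unigene at 25 DAP, comp40218_c0_seq4, had 2544505 reads at 25 DAP, against 1318475 at 10 DAP, a 1.66-fold difference. At 10 DAP the most abundant was comp40800_c2_seq2, with 1703318 reads at 25 DAP, against 3476869 at 10 DAP, 2.38-fold lower at 25 DAP and 0.99 lower on the log2 scale, just within 2-fold, with TMM factors. For neither was a description read.

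Trinity groups sequences that overlap into components, among which the reads of a gene can be split or counted more than once. The unigenes considered here came from 20273 components, and 14017 of them (41.5%) were the sole sequence of theirs. Of the 5509 components with at least 2 of these unigenes, 229 (4.16%) held both a higher and a lower one, and 80 held a 4-fold higher and a 4-fold lower one. The 20 components with the largest share of reads in a library held 43.6% of the reads at 25 DAP and 42.1% at 10 DAP, and summed over their sequences 9 of them were higher and 5 lower at 25 DAP. The component with the most reads at 25 DAP had 7.01% of them at 25 DAP and 2.88% at 10 DAP. Another, of 5 sequences, had 6.23% at 25 DAP and 0.870% at 10 DAP. The one with the most reads at 10 DAP had 0.808% at 25 DAP and 6.27% at 10 DAP, 7.75-fold lower, and another of 5 sequences had 0.398% at 25 DAP and 5.62% at 10 DAP, 14.1-fold lower. These components were singled out after their values were seen, and none of their sequences has a description that could be read.

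A set of 16 unigenes, many of them enzymes between sucrose and starch, was taken over with gene names from the work that made these libraries. Of the 16, 15 rose at 25 DAP, which is a description only, as the set had been picked on the same libraries. On the way from sucrose to glucose 1-phosphate, sucrose synthase (comp38328_c0_seq2), which splits sucrose into fructose and UDP-glucose, had 60.9 RPKM at 25 DAP and 26.4 RPKM at 10 DAP, 2.31-fold higher (interval 2.23 to 2.39). Its summed component was 2.25-fold higher, although the scarce sequence comp38328_c0_seq5 fell, with 74 reads at 25 DAP, against 194 at 10 DAP. A unigene (comp37981_c0_seq1) like UTP-glucose-1-phosphate uridylyltransferase, which interconverts UDP-glucose and glucose 1-phosphate, had 98.5 RPKM at 25 DAP and 17.4 RPKM at 10 DAP, 5.65-fold higher (5.40 to 5.92). Both steps were thus higher late, the uridylyltransferase by more. Phosphoglucomutase (comp37100_c1_seq1), which links glucose 1-phosphate to glucose 6-phosphate, had 114 RPKM at 25 DAP and 14.9 RPKM at 10 DAP, 7.61-fold higher (7.29 to 7.94). Glucose-6-phosphate isomerase (comp32440_c0_seq3), which links glucose and fructose 6-phosphates, had 71.0 RPKM at 25 DAP and 25.7 RPKM at 10 DAP, 2.77-fold higher (2.66 to 2.88). The cytoplasmic fructose-bisphosphate aldolase (comp36369_c1_seq2), an enzyme of glycolysis, had 273 RPKM at 25 DAP and 77.7 RPKM at 10 DAP, 3.51-fold higher (3.42 to 3.60). These 5 ratios lay between 2.31 and 7.61.

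All 4 unigenes of enzymes that make starch itself rose, 2 of them by more than the 7.61-fold of phosphoglucomutase. ADP-glucose pyrophosphorylase (comp40170_c0_seq1), which makes the glucose donor of starch, had 16760 reads (120 RPKM) at 25 DAP, against 496 reads (4.13 RPKM) at 10 DAP, 29-fold higher (26.5 to 31.8). The other sequence of its component had 58.9 RPKM at 25 DAP and 3.12 RPKM at 10 DAP. A large subunit of the same enzyme, glucose-1-phosphate adenylyltransferase large subunit 2 (comp40857_c0_seq14), had 50.5 RPKM at 25 DAP and 7.61 RPKM at 10 DAP, 6.64-fold higher (5.88 to 7.51). That unigene is 1 of 10 sequences of its component, of which 9 passed 50 reads with log2 ratios from -1.32 to 2.73, and the summed component was only 2.08-fold higher. Granule-bound starch synthase 1 (comp40911_c0_seq4), which elongates amylose inside the granule, had 107330 reads (2165 RPKM) at 25 DAP, against 2213 reads (52.0 RPKM) at 10 DAP. Its ratio of 41.6 (39.9 to 43.4) was the largest among the named enzymes of sugar and starch metabolism. All 4 sequences of its component together took 0.999% of the reads at 25 DAP and 0.0278% at 10 DAP, 36.0-fold more. Of these, 3 rose alike, with log2 ratios of 5.09 to 5.38, while the scarce comp40911_c0_seq11, with 281 reads at 25 DAP, against 187 at 10 DAP, stayed within 2-fold. Starch branching enzyme II (comp39207_c0_seq1), which makes the branch points of amylopectin, had 81.5 RPKM at 25 DAP and 18.6 RPKM at 10 DAP, 4.39-fold higher (4.23 to 4.55).

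Of the named enzymes of nitrogen metabolism, all 3 rose. Argininosuccinate synthase (comp30932_c0_seq2), which acts in the formation of arginine, a nitrogen-rich amino acid of legume storage proteins, had 30912 reads (272 RPKM) at 25 DAP, against 803 reads (8.23 RPKM) at 10 DAP, 33.0-fold higher (30.8 to 35.5). The other sequence of its component was only 3.86-fold higher, and the summed component 21.5-fold. The glutamate synthases, which form glutamate from glutamine, were higher by less. The first (comp40537_c0_seq17) had 19.2 RPKM at 25 DAP and 5.84 RPKM at 10 DAP, 3.29-fold higher (3.17 to 3.42), and the second (comp40590_c1_seq19) 21.0 RPKM at 25 DAP and 5.50 RPKM at 10 DAP, 3.82-fold higher (3.66 to 3.99). The seed regulator FUS3 was 2.15-fold higher (2.04 to 2.27) at 25 DAP, close to the 2-fold limit.

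The small heat shock protein (comp12242_c0_seq1), a chaperone that keeps unfolded proteins soluble, had the highest ratio of the 16, with 2064 reads at 25 DAP, against 8 reads at 10 DAP, 221-fold higher (112 to 514). The ADP-ribosylation factor (comp37255_c0_seq46), a small GTPase of vesicle formation, had 61.9 RPKM at 25 DAP and 20.4 RPKM at 10 DAP, 3.04-fold higher (2.85 to 3.24). It is 1 of 19 sequences of its component, whose sum was 1.70-fold higher and so did not reach 2-fold. The unigene that did not rise was an antenna protein of photosynthesis, named as a light harvesting chlorophyll a/b protein (comp40423_c1_seq2), with 85 reads at 25 DAP, against 55 at 10 DAP, a ratio of 1.33 (0.934 to 1.90). It was among the scarcest of the 5 sequences of its component, of which the other 4 rose with log2 ratios of up to 3.54, and the sum was 5.21-fold higher. For this gene the single sequence and its component therefore gave different calls.

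**Figure D3:**
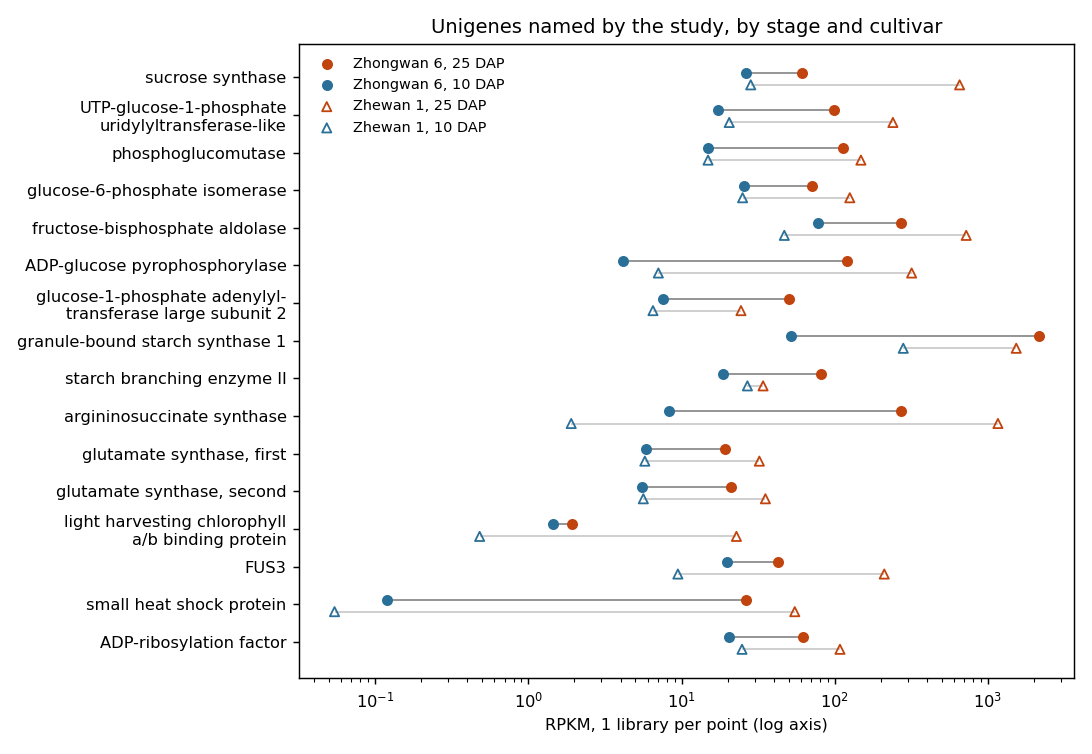
RPKM (horizontal log axis) of 16 named unigenes, with 1 library per point; filled circles are Zhongwan 6, open triangles Zhewan 1, red 25 DAP and blue 10 DAP, and lines join the stages of a cultivar. In Zhongwan 6 the 25 DAP point lies right of the 10 DAP point for all 16, with the widest gap for the small heat shock protein (26.4 and 0.119 RPKM) and the narrowest for the light harvesting protein (1.92 and 1.45 RPKM).

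For other functions, descriptions from an annotation against Medicago truncatula proteins were used, of which 1998 entries could be read. They give a description to 455 of the unigenes considered here (1.35%). These 455 are not a fair sample: 86.4% of them are the sole sequence of their component, against 41.5% of all, and their highest RPKM was 324 at 25 DAP, against 239 at 10 DAP, far below the abundant components above. Of the 455, 99 (21.8%) rose and 118 (25.9%) fell, with a median log2 ratio of -0.07, beside 16.2%, 26.1% and -0.22 over all 33799. By words in the descriptions, 168 of them were placed in 18 lists. The lists are small, so they are given as counts and medians, with no test.

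**Figure D4:**
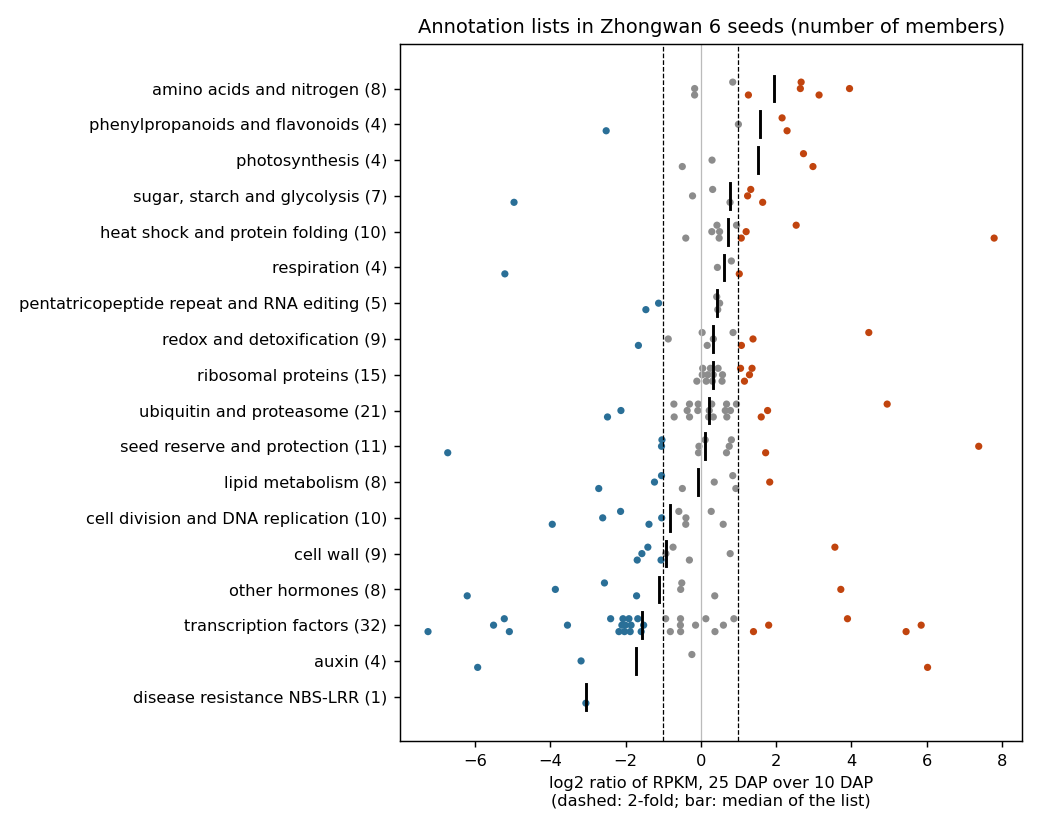
The log2 RPKM ratio of 25 DAP over 10 DAP (horizontal axis) of each annotated unigene in 18 lists (rows, number of members in brackets), ordered by the median of the list, which is the black bar; red points are at least 2-fold higher, blue at least 2-fold lower and grey within 2-fold. Amino acids and nitrogen has the highest median (1.95) among the lists, and transcription factors hold the most lower members (17 of 32).

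Of 8 genes of amino acid metabolism and transport 5 rose and 0 fell, with a median log2 ratio of 1.95, but only 4 of the 8 had 50 reads in both libraries, and those that entered through 25 DAP alone were likely to be called higher by that rule. Dihydrodipicolinate synthase (comp12373_c0_seq1), the entry enzyme of lysine synthesis, had 33.9 RPKM at 25 DAP and 14.1 RPKM at 10 DAP, 2.40-fold higher (2.25 to 2.56). Glutamine dumper 3 (comp13088_c0_seq1), of a family that promotes amino acid export in Arabidopsis thaliana, had 313 reads at 25 DAP, against 43 reads at 10 DAP, 6.25-fold higher (4.53 to 8.81). The list's most abundant member, a beta-ureidopropionase (comp13463_c0_seq2), which acts in pyrimidine breakdown, differed little, with 57.4 RPKM at 25 DAP and 64.3 RPKM at 10 DAP. Of the 5 higher members, 2 are sequences of the same tryptophan/tyrosine permease component, so the count rests on fewer genes than it seems to.

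Of 7 annotated unigenes of sugar, starch and glycolysis 3 rose and 1 fell (median 0.78), and 4 of the 7 had 50 reads in both libraries. The aldolase superfamily unigene comp13300_c0_seq1 had 291 reads at 25 DAP, against 80 at 10 DAP, 3.12-fold higher (2.43 to 4.05). The most abundant, a phosphoglycerate mutase (comp12183_c0_seq1), which acts late in glycolysis, had 26.8 RPKM at 25 DAP and 15.7 RPKM at 10 DAP, 1.71-fold higher and below the limit. In respiration 1 of 4 rose and 1 fell (median 0.63). The mitochondrial ATP synthase subunit G (comp12816_c0_seq2) stood at the limit, with 43.0 RPKM at 25 DAP and 21.2 RPKM at 10 DAP, 2.03-fold higher (1.90 to 2.17). Succinate dehydrogenase 5 (comp13358_c0_seq1), a part of the enzyme that feeds electrons from succinate into the respiratory chain, had 37.9 RPKM at 25 DAP and 21.6 RPKM at 10 DAP, 1.75-fold higher.

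Of 4 photosynthesis genes 2 rose and 0 fell (median 1.51), and those that rose are encoded in the nucleus. The photosystem II light harvesting complex gene 2.1 (comp13040_c0_seq1), an antenna protein, had 7216 reads (87.6 RPKM) at 25 DAP, against 786 reads (11.1 RPKM) at 10 DAP, 7.88-fold higher (7.32 to 8.49). Photosystem I subunit H2 (comp12625_c0_seq1) had 72.4 RPKM at 25 DAP and 10.9 RPKM at 10 DAP, 6.62-fold higher (5.98 to 7.33). The reaction center proteins A and B of photosystem II, which plants encode in the chloroplast, were within 2-fold. Protein A (comp12834_c0_seq1) had 241 reads at 25 DAP, against 291 at 10 DAP, and protein B (comp11161_c0_seq1), named here after its values were seen, 63 at 25 DAP, against 44 at 10 DAP. Both libraries were made from RNA selected with oligo(dT).

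Proteins of the seed's reserves and protection went both ways, with 2 of 11 higher and 3 lower as deposited (median 0.12), but 4 higher and 1 lower with TMM factors. The Kunitz trypsin inhibitor (comp12822_c0_seq1), of a family of protease inhibitors stored in legume seeds, had 777 reads at 25 DAP, against 4 reads at 10 DAP, 167-fold higher (64.9 to 613). The unknown seed protein like 1 (comp12618_c0_seq1) was the most abundant of all annotated unigenes at 25 DAP, with 324 RPKM at 25 DAP and 98.2 RPKM at 10 DAP, 3.30-fold higher (3.10 to 3.50). Against these, a serine protease inhibitor of the potato inhibitor I type (comp10318_c0_seq1) had 2 reads at 25 DAP, against 272 at 10 DAP, 158-fold lower (43.4 to 1315) on those 2 reads, with a log2 ratio of -6.72 at the floor. So the protease inhibitors of this list included both its highest and its lowest ratio. The patatin-like phospholipase (comp12596_c0_seq1) had 161 reads at 25 DAP, against 285 at 10 DAP, 2.06-fold lower, a call that ended under every other scaling. The 6 members within 2-fold included the oleosin, the caleosin and both serpin sequences.

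Heat shock and folding proteins were higher or similar, with 4 of 10 higher, 0 lower and a median of 0.72. Besides heat shock protein 21, the name that the annotation gives to the small heat shock protein above, an HSP20-like chaperone (comp13409_c0_seq1) had 883 reads at 25 DAP, against 131 at 10 DAP, 5.79-fold higher (4.81 to 7.00). Both chaperonin 20 sequences that rose belong to the same component. The most abundant member, an htpG family chaperone of the Hsp90 class (comp12506_c0_seq1), had 44.4 RPKM at 25 DAP and 33.0 RPKM at 10 DAP and did not reach 2-fold. The 15 ribosomal proteins moved within a narrow range, from -0.11 to 1.36 on the log2 scale, and 4 of them rose and 0 fell (median 0.33). Ribosomal S17 (comp13192_c0_seq1) had 132 RPKM at 25 DAP and 51.5 RPKM at 10 DAP, 2.57-fold higher (2.44 to 2.70), and L39 (comp13311_c0_seq1) 51.9 RPKM at 25 DAP and 21.2 RPKM at 10 DAP, 2.45-fold higher (2.13 to 2.82). The most abundant, S27a fused to ubiquitin (comp13084_c0_seq1), had 242 RPKM at 25 DAP and 192 RPKM at 10 DAP.

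Of 10 genes of cell division and DNA replication 5 fell and 0 rose (median -0.81), and 4 fell under each other scaling. The share lower over all unigenes was 26.1%. Only 6 of the 10 had 50 reads in both libraries, so the others were likely to be called by the entry rule. The histone comp13105_c0_seq2 had 44 reads at 25 DAP, against 230 at 10 DAP, 6.09-fold lower (4.40 to 8.61), and was the most abundant of the list at 10 DAP. A cyclin (comp13445_c0_seq1), a regulator of the cell cycle, had 161 reads at 25 DAP, against 359 at 10 DAP, 2.60-fold lower (2.15 to 3.15). All members of this list were scarce, and summed over the list they had 15.5 RPKM at 25 DAP and 40.0 RPKM at 10 DAP. In the cell wall list 4 of 9 fell and 1 rose (median -0.93), while 3 fell and 2 rose with TMM factors. Only 4 of the 9 had 50 reads in both libraries. The SKU5 similar 4 unigenes, related to a protein of directed root growth in Arabidopsis thaliana, are from separate components. The first (comp12662_c0_seq2) had 98 reads at 25 DAP, against 249 at 10 DAP, 2.96-fold lower (2.33 to 3.78). The second (comp12288_c0_seq2) had 112 reads at 25 DAP, against 255 at 10 DAP, 2.65-fold lower (2.12 to 3.34).

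Transcription factors held the largest number of lower members. Of 32, 17 fell (53.1%) and 5 rose (15.6%), with a median log2 ratio of -1.55, beside 26.1% lower and 16.2% higher over all unigenes. Under the other 4 scalings 17 fell and 5 or 6 rose. Of the 32, 19 had 50 reads in both libraries, so the others had entered through 1 of them. The lower ones included both WRKY factors, both AP2/ERF factors, all 5 MYB sequences, 3 of 4 homeobox sequences and the NAC and MADS-box factors, but 3 of the MYB sequences are of 1 component and so are 2 of the homeobox sequences. WRKY24 (comp10982_c0_seq1), of a family of stress and defence regulators, had 0 reads at 25 DAP, against 391 reads at 10 DAP. Against a floor of 3 reads in the 25 DAP library it was at least 152-fold lower. An Integrase-type DNA-binding factor (comp12701_c0_seq1), the annotation's name for the AP2/ERF family of hormone and stress response factors, was the most abundant of the list, with 79 reads (1.13 RPKM) at 25 DAP, against 2303 reads (38.5 RPKM) at 10 DAP, 34.0-fold lower (27.1 to 43.1). Myb domain protein 48 (comp13240_c0_seq1) had 7 reads at 25 DAP, against 224 at 10 DAP, 37.3-fold lower (17.8 to 93.8). The AP2/ERF factor thus had the highest level of the list at 10 DAP and kept 79 reads at 25 DAP. Among those that rose, a basic leucine zipper factor (comp13209_c0_seq2) had 202 reads at 25 DAP, against 3 reads at 10 DAP, a ratio of 57.8 (19.5 to 283). The other sequence of its component, comp13209_c0_seq1, had 153 reads at 25 DAP, against 1 read at 10 DAP. A duplicated homeodomain-like factor (comp12746_c0_seq1) had 949 reads at 25 DAP, against 309 at 10 DAP, 2.64-fold higher (2.32 to 3.01).

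Auxin genes went to opposite extremes, with 1 of 4 higher and 2 lower (median -1.71), and 2 of the 4 had 50 reads in both libraries. Tryptophan aminotransferase related 2 (comp11388_c0_seq1), of the enzyme family that starts auxin synthesis from tryptophan, had 4392 reads (37.4 RPKM) at 25 DAP, against 58 reads (0.576 RPKM) at 10 DAP, 65.0-fold higher (50.2 to 85.7). An AUX/IAA unigene (comp10484_c0_seq2), a repressor of auxin responses, had 4 reads at 25 DAP, against 209 at 10 DAP, 60.9-fold lower (23.4 to 226). Of 8 genes of other hormones 1 rose and 4 fell (median -1.12), and 5 of the 8 had 50 reads in both libraries. A gibberellin-regulated unigene (comp12452_c0_seq1) had 598 reads at 25 DAP, against 39 at 10 DAP, 13.2-fold higher (9.51 to 18.7). Histidine kinase 3 (comp12269_c0_seq1), named for a cytokinin receptor of Arabidopsis thaliana, had 146 reads at 25 DAP, against 739 at 10 DAP, 5.90-fold lower (4.93 to 7.09). Highly ABA-induced PP2C gene 2 (comp13535_c0_seq1), of the phosphatases that restrain abscisic acid signalling, had 272 reads at 25 DAP, against 762 at 10 DAP, 3.26-fold lower (2.84 to 3.76). Ethylene response sensor 1 (comp12609_c0_seq1), an ethylene receptor, stayed within 2-fold with 11.4 RPKM at 25 DAP and 8.79 RPKM at 10 DAP.

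In lipid metabolism 1 of 8 rose and 3 fell (median -0.07) as deposited, whereas 3 rose and 1 fell (median 0.19) with TMM factors. Subunit B of ATP-citrate lyase (comp13157_c0_seq1), which supplies cytosolic acetyl-CoA, had 13.1 RPKM at 25 DAP and 3.67 RPKM at 10 DAP, 3.55-fold higher (3.22 to 3.93). Lipoxygenase 1 (comp12189_c0_seq1), which oxygenates polyunsaturated fatty acids, had 53 reads at 25 DAP, against 298 at 10 DAP, 6.55-fold lower (4.88 to 8.95). Fatty acid desaturase 2 (comp12722_c0_seq1), which turns oleic into linoleic acid, had 195 reads at 25 DAP, against 393 at 10 DAP, 2.35-fold lower (1.97 to 2.80), within 2-fold with TMM and DESeq2 factors. Of 4 genes of phenylpropanoids and flavonoids 2 rose and 1 fell (median 1.58), but only 1 of the 4 had 50 reads in both libraries. The chalcone-flavanone isomerase (comp13136_c0_seq1), an early step to flavonoids, had 114 reads at 25 DAP, against 559 at 10 DAP, 5.71-fold lower (4.66 to 7.05). Flavanone 3-hydroxylase (comp12893_c0_seq1), the step that follows, had 114 reads at 25 DAP, against 49 at 10 DAP. It lay just within 2-fold as deposited and past 2-fold under each other scaling.

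Among 9 redox genes 3 rose and 1 fell (median 0.33). A thioredoxin family unigene (comp12150_c0_seq1), of small proteins that reduce disulfides, had 178 RPKM at 25 DAP and 84.3 RPKM at 10 DAP, 2.11-fold higher (2.05 to 2.18). Ascorbate peroxidase 3 (comp12282_c0_seq1), which removes hydrogen peroxide, had 461 reads at 25 DAP, against 1249 at 10 DAP, 3.16-fold lower (2.83 to 3.52). The most abundant, thioredoxin-dependent peroxidase 1 (comp11282_c0_seq1), had 183 RPKM at 25 DAP and 101 RPKM at 10 DAP, below the limit. The ubiquitin list was the least changed of the larger ones, with 3 of 21 higher, 2 lower and 16 within 2-fold (median 0.22). Its largest difference among abundant members was that of ubiquitin-conjugating enzyme 28 (comp12598_c1_seq1), with 173 RPKM at 25 DAP and 50.5 RPKM at 10 DAP, 3.42-fold higher (3.27 to 3.58). Of 5 pentatricopeptide repeat unigenes, RNA-binding proteins of organelles, 0 rose and 2 fell (median 0.42), 1 of which (comp10591_c0_seq1) had 119 reads at 25 DAP, against 281 at 10 DAP, 2.75-fold lower (2.21 to 3.44). The only disease resistance unigene (comp12127_c0_seq1) had 8 reads at 25 DAP, against 57 at 10 DAP.

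Among annotated unigenes with at least 200 reads in the higher library, some of the largest differences lay outside the lists. Of those higher at 25 DAP, a CAP superfamily unigene (comp12450_c0_seq1), related to pathogenesis-related protein 1, had 1322 reads at 25 DAP, against 7 at 10 DAP, 162-fold higher (78.4 to 404). A hypoxia-responsive family unigene (comp11006_c0_seq1) had 503 reads at 25 DAP, against 0 reads at 10 DAP, at least 144-fold higher against 3 reads in the 10 DAP library. The thiazole biosynthetic enzyme THI4 (comp12347_c0_seq1), which makes the thiazole part of vitamin B1, had 449 reads at 25 DAP, against 8 at 10 DAP, 48.2-fold higher (24.2 to 112). All 3 were close to absent at 10 DAP. A zinc-binding oxidoreductase (comp13160_c0_seq1) was 20.7-fold higher, and a 2Fe-2S ferredoxin-like unigene (comp12767_c0_seq1), an electron carrier, was 15.6-fold higher, with 79.5 RPKM at 25 DAP and 5.08 RPKM at 10 DAP.

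Of those lower at 25 DAP, a protein of unknown function with a DUF506 domain (comp13428_c0_seq1) had the lowest ratio, with 6 reads at 25 DAP, against 2382 at 10 DAP, 463-fold lower (212 to 1262). A calcium-binding EF-hand unigene (comp11276_c0_seq1) had 7 reads at 25 DAP, against 446 at 10 DAP, 74.2-fold lower (35.7 to 186). The salt tolerance zinc finger (comp12275_c0_seq1), a stress response regulator in Arabidopsis thaliana, had 34 reads at 25 DAP, against 755 at 10 DAP, 25.9-fold lower (18.4 to 37.6). The SET7/9 family unigene (comp12612_c0_seq1) was 18.4-fold lower. Uridine-ribohydrolase 1 (comp12296_c0_seq1), which breaks down nucleosides, kept more reads, with 316 at 25 DAP, against 3267 at 10 DAP, 12-fold lower (10.7 to 13.6).

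Further large differences were found among unigenes without a description that could be read. With 5200 reads at 25 DAP, against 0 at 10 DAP, comp34924_c0_seq2 (581 bp) was at least 1488-fold higher against 3 reads at 10 DAP. The unigene comp36631_c0_seq1 (239 bp) had 5040 reads at 25 DAP, against 1 read at 10 DAP, a ratio of 4326 (776 to 170886) that rests on that 1 read. With the floor of 3 reads their log2 ratios were nearly equal, 10.54 for comp34924_c0_seq2 and 10.49 for comp36631_c0_seq1. In the other direction comp27568_c0_seq1 (1692 bp) had 2 reads at 25 DAP, against 5932 at 10 DAP, 3456-fold lower (956 to 28543) on those 2 reads, with a log2 ratio of -11.17 at the floor. The unigene comp40466_c1_seq1 (615 bp) had 29 reads at 25 DAP, against 50165 at 10 DAP, 2016-fold lower (1403 to 3010), but it is 1 of 7 sequences of its component, whose summed log2 ratio was -7.09.

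The stage ratios of Zhewan 1, which shares no library with those above, were set beside them for the 31119 unigenes that also had 50 reads in a Zhewan 1 library. Over these the median log2 ratio was -0.19 in Zhongwan 6 and 0.58 in Zhewan 1, where 36.2% rose and 16.1% fell, all with the RPKM as deposited. TMM factors add 0.26 in Zhongwan 6 and take 0.55 off in Zhewan 1. With them the medians were 0.07 in Zhongwan 6 and 0.03 in Zhewan 1, where 22.2% rose and 23.4% fell. DESeq2 size factors gave 0.05 in Zhongwan 6 and 0.03 in Zhewan 1. Both kinds of factor are made to bring the bulk of the ratios near 0. They therefore cannot show whether the gap as deposited is a shift of many transcripts, which was not tested. Across unigenes, which are not independent, Pearson's r of the log2 ratios was 0.65 and Spearman's rho 0.57. Of the 4810 unigenes that rose in Zhongwan 6, 3601 (74.9%) also rose in Zhewan 1, 833 were within 2-fold and 376 (7.82%) fell. Of the 7352 that fell in Zhongwan 6, 3207 (43.6%) fell in Zhewan 1 too, 3370 were within 2-fold and 775 (10.5%) rose. The backgrounds in Zhewan 1 are 36.2% for the higher and 16.1% for the lower ones. Which overlap was the larger share turned with the scaling, as with TMM factors 56.8% of the higher unigenes rose and 63.0% of the lower ones fell in Zhewan 1 too. With 1 library per side none of these differences was tested.

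**Figure D5:**
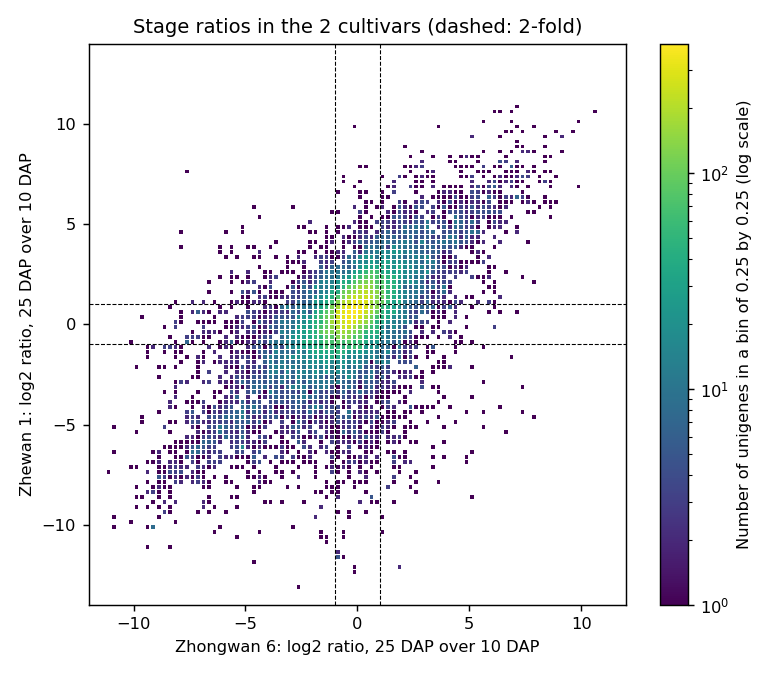
The log2 RPKM ratio of 25 DAP over 10 DAP in Zhongwan 6 (horizontal axis) and in Zhewan 1 (vertical axis) for 31119 unigenes, binned by 0.25, with color giving the number of unigenes on a log scale and dashed lines at 2-fold. With the RPKM as deposited, the cloud runs along the diagonal (Pearson's r of 0.65), with its center above 0 in Zhewan 1 (median 0.58) and below 0 in Zhongwan 6 (median -0.19), and points occur in the upper left (775) and lower right (376) fields.

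As deposited, the starch enzymes did not share an order between the cultivars. With TMM factors the named unigenes of these enzymes all had the higher log2 ratio in Zhongwan 6. Granule-bound starch synthase 1 (comp40911_c0_seq4) had a log2 ratio of 5.38 in Zhongwan 6 and 2.45 in Zhewan 1, where it had 1533 RPKM at 25 DAP and 280.5 RPKM at 10 DAP. Starch branching enzyme II (comp39207_c0_seq1) had 2.13 in Zhongwan 6 and, within 2-fold, 0.34 in Zhewan 1, where it had 34.1 RPKM at 25 DAP and 26.9 RPKM at 10 DAP. The large subunit comp40857_c0_seq14 had 2.73 in Zhongwan 6 and 1.91 in Zhewan 1. For these 3 the log2 ratio was higher in Zhongwan 6 with TMM and DESeq2 factors as well. ADP-glucose pyrophosphorylase (comp40170_c0_seq1) went the other way as deposited, with 4.86 in Zhongwan 6 and 5.49 in Zhewan 1, and turned to 5.11 in Zhongwan 6 and 4.94 in Zhewan 1 with TMM factors. The other sequence of its component had 4.24 in Zhongwan 6 and 6.20 in Zhewan 1 as deposited. The component sum had 4.63 in Zhongwan 6 and 5.74 in Zhewan 1, and TMM factors do not turn the order of either. Sucrose synthase (comp38328_c0_seq2), at the head of the pathway, had a log2 ratio of 1.21 in Zhongwan 6 and 4.53 in Zhewan 1, with 654 RPKM at 25 DAP and 28.3 RPKM at 10 DAP there, and stayed lower in Zhongwan 6 with TMM factors (1.46 in Zhongwan 6 and 3.98 in Zhewan 1). Argininosuccinate synthase (comp30932_c0_seq2) had 5.05 in Zhongwan 6 and 9.26 in Zhewan 1, and FUS3 (comp26137_c0_seq1) 1.10 in Zhongwan 6 and 4.48 in Zhewan 1. Both stayed lower in Zhongwan 6 with TMM and DESeq2 factors. Phosphoglucomutase (comp37100_c1_seq1) had 2.93 in Zhongwan 6 and 3.32 in Zhewan 1, an order that turned with TMM factors (3.18 in Zhongwan 6 and 2.76 in Zhewan 1).

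Over the list members that had 50 reads in a library of each cultivar, the median was higher in Zhewan 1 for 15 of 17 lists as deposited and for 10 of 17 with TMM factors. Ribosomal proteins had a median log2 ratio of 0.39 in Zhongwan 6 and 2.39 in Zhewan 1, where 13 of 14 rose, and with TMM factors 0.65 in Zhongwan 6 and 1.84 in Zhewan 1. Cell division genes had -0.58 in Zhongwan 6 and 0.96 in Zhewan 1, where 4 of 9 rose and 4 fell, and with TMM factors -0.33 in Zhongwan 6 and 0.40 in Zhewan 1. Transcription factors had -1.23 in Zhongwan 6 and 0.34 in Zhewan 1, where 7 of 28 rose and 9 fell, and the Zhewan 1 median turned to -0.21 with TMM factors, against -0.97 in Zhongwan 6. Seed reserve and protection had 0.12 in Zhongwan 6 and -1.15 in Zhewan 1, where 0 of 11 rose and 6 fell, and with TMM factors 0.37 in Zhongwan 6 and -1.71 in Zhewan 1.

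Of the 125 annotated unigenes that differed at least 2-fold between stages in both cultivars, 100 had the same direction, while 7 were higher in Zhongwan 6 but lower in Zhewan 1 and 18 the reverse. Over all 31119 unigenes 3601 rose and 3207 fell in both, while 376 and 775 went opposite ways in that order. With TMM factors 94 of 113 annotated ones had the same direction. The others split into 13 and 6, beside 635 and 316 over all. The annotated unigenes thus split much as all unigenes did. Of the 9 components among the 20 largest that were higher in Zhongwan 6, 6 were lower in Zhewan 1, and of the 5 lower ones 4 were lower in Zhewan 1 as well. Over unigenes 376 of 4810 higher ones (7.82%) and 3207 of 7352 lower ones (43.6%) were lower in Zhewan 1. The 20 were ranked by their reads in the Zhongwan 6 libraries, so a component could enter by being high there at 1 stage. With TMM factors 7 of 10 and 3 of 3 were lower in Zhewan 1. The component of 5 sequences that held 6.23% of the reads at 25 DAP and 0.870% at 10 DAP in Zhongwan 6 held 0.466% at 25 DAP and 3.97% at 10 DAP in Zhewan 1. An abundant annotated unigene of this kind, picked after its values were seen, was reticulan like protein B13 (comp13530_c0_seq2), of a family that shapes the endoplasmic reticulum. It had 16101 reads at 25 DAP, against 2378 at 10 DAP in Zhongwan 6, and 87 reads at 25 DAP, against 24958 at 10 DAP in Zhewan 1.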

How the data were processed

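The authors mapped the clean reads of each library to unigenes assembled by Trinity from all libraries, with Bowtie (version 0.12.8 in the submitters' processing notes), and deposited the count of reads per unigene. The authors also deposited RPKM, the count relative to unigene length and to all counted reads of that library. Reads were counted on more than 1 sequence, as the counts exceed the clean reads of both Zhongwan 6 libraries. Recomputed RPKM matched within 0.1% except for 1 entry at 25 DAP.

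Here calls and log2 ratios were taken from the RPKM, with counts under 3 set to 3, and folds with intervals from the reads as counted, over unigenes with at least 50 reads in 1 of the 2 Zhongwan 6 libraries. A count of 0 allows up to 3 reads, 0.0423 RPKM at 25 DAP and 0.0493 RPKM at 10 DAP for a unigene of 1 kb. With 1 library per stage there was no test. Intervals are exact Clopper-Pearson. Alternatives were 4 other scalings (edgeR 4.0.16 TMM, DESeq2 1.42.0 size factors, median ratio, totals without the 100 most abundant), other read minimums, pseudocounts, component sums, a 4-fold limit and a test on reads. Scalings of the Zhewan 1 libraries were added after seeing the data.

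Named were the 16 unigenes to which the authors gave gene names; the 10 largest rises and falls among annotated unigenes with at least 200 reads in the higher library; in each list the 2 largest rises and falls with 200 reads and the highest RPKM; of unigenes without a description 2 rises and 2 falls; and the most abundant of each library. A few repeated or unremarkable ones were left out of the text. The unigenes considered, lists and rules were chosen with earlier results of these data known. The annotation was read in part, so no set test was run. No unigene sequence or genome position was used. Computations used R 4.3.3, pandas 2.3.3 and SciPy 1.17.1 under Python 3.11.15 with NumPy 2.4.6, and matplotlib 3.10.9 for figures.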

Additional observations from a re-analysis of the deposited data

Results flagged for a closer look

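Of the unigenes picked by the naming rule, 2 changed at least 2-fold between the stages in opposite directions in the cultivars. The Kunitz trypsin inhibitor (comp12822_c0_seq1) had a log2 ratio of 7.38 in Zhongwan 6 and -4.33 in Zhewan 1, where it had 0 reads at 25 DAP and 54 at 10 DAP. Fatty acid desaturase 2 (comp12722_c0_seq1) had -1.23 in Zhongwan 6 and 2.12 in Zhewan 1, where it had 1427 reads at 25 DAP and 294 at 10 DAP, but in Zhongwan 6 it was within 2-fold with TMM and DESeq2 factors. With 1 library per stage and cultivar neither difference was tested.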

How the results depend on the processing

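The count of higher unigenes (5480) and of lower ones (8828) stayed within 1.5 times under the 4 other scalings, a minimum of 20 reads, pseudocounts of 1 and 0.1 on the RPKM, a whole interval beyond 2-fold (4310 higher, 7129 lower) and an added false discovery rate of 0.001 in a test on the reads of the 2 libraries (5411 higher, 8788 lower), which compares libraries, not conditions. They moved further with no minimum (10704 higher, 18823 lower), with sums over components (3414 higher, 5305 lower of 20487 components) and with a 4-fold limit (2613 higher, 4576 lower), and the lower ones also with a minimum of 200 reads (5770, of 23801 unigenes). In each of these, lower unigenes outnumbered higher ones. The median log2 ratio of -0.22 moved to -0.043 with median-ratio scaling, 0.035 with TMM factors, 0.013 with DESeq2 size factors and -0.15 without the 100 most abundant unigenes. It was -0.25 with a minimum of 20 reads, -0.19 with 200 reads, -0.16 with a pseudocount of 1 and -0.18 with component sums. With scalings of the Zhewan 1 libraries, chosen after seeing the data, the Zhewan 1 median of 0.58 moved to 0.046 with median-ratio scaling, 0.026 with TMM factors and 0.026 with DESeq2 size factors, and the 11252 unigenes higher in Zhewan 1 to 7032, 6899 and 6900 in that order, while the lower ones and those shared between the cultivars stayed within 1.5 times. A change of scaling adds the same number to every log2 ratio by construction. Of the 67 named unigenes past 2-fold, all kept their direction and 64 to 66 kept 2-fold, depending on the setting. Under the scalings the kept direction was fixed in advance, as they add 0.26 or less to log2 ratios past 1 or -1. With sums over components all 67 kept their direction and 66 kept 2-fold. No paired analysis was possible because each stage has 1 library and the labels give no replicate numbers. The limits are the single library per stage, reads counted on more than 1 sequence, and an annotation that covers 1.35% of the unigenes.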

Other observations

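Annotated unigenes outside the lists, grouped by words chosen after their values were seen, add some further groups. Of 287 such unigenes 61 rose and 72 fell at 25 DAP, beside 16.2% higher and 26.1% lower over all unigenes, and the groups are too small to set against these shares. The S-locus lectin kinase comp11898_c0_seq1, a receptor-like kinase, fell, with 2 reads at 25 DAP, against 114 at 10 DAP. Of 12 transporters and channels 4 rose and 4 fell. Both sequences of a NOD26-like intrinsic protein component, of a family of channels for water and small solutes, rose, comp11042_c0_seq1 with 172 reads at 25 DAP, against 13 at 10 DAP. Both had entered through 25 DAP alone. Phosphate transporter 1;5 (comp10854_c0_seq1) fell, with 27 reads at 25 DAP, against 137 at 10 DAP. Of 11 unigenes of calcium binding 4 rose and 2 fell, and the most abundant, calmodulin 5 (comp13151_c0_seq1), a calcium sensor, had 6905 reads at 25 DAP, against 3435 at 10 DAP, within 2-fold. All 3 glycosyltransferases rose, but comp12927_c0_seq1 and comp11967_c0_seq1 entered through 25 DAP alone, which makes a higher call likely. The remaining one, comp13091_c0_seq1, had 2717 reads at 25 DAP, against 383 at 10 DAP, in Zhongwan 6. In Zhewan 1 the same unigene had 48 at 25 DAP, against 1393 at 10 DAP.

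Other values stood out by their pattern between cultivars. A bHLH factor (comp12270_c0_seq1) had 137 reads at 25 DAP, against 64 at 10 DAP, in Zhongwan 6, while Zhewan 1 had 0 at 25 DAP, against 106 at 10 DAP. A protein with a DUF300 domain (comp12777_c0_seq1) had 2630 reads at 25 DAP, against 1674 at 10 DAP in Zhongwan 6, while its log2 ratio in Zhewan 1 was -5.68. The 3 sequences of the myb domain protein 3r-5 component had 25 to 80 reads at 25 DAP, against 90 to 214 at 10 DAP in Zhongwan 6, with log2 ratios of -1.59 to -2.07, and log2 ratios of -3.68 to -4.18 in Zhewan 1. These were picked after their values were seen, and no difference between the cultivars was tested.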
